A study of Mus musculus with 9 samples.

Results

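Aminoacyl-tRNA synthetases join each amino acid to its tRNA, the step that sets which residue a codon brings into a protein. Mammalian cells make one set for the cytosol and one for the mitochondrial matrix, both from nuclear genes, and the mitochondrial enzymes charge the tRNAs that read the mitochondrial genome. Some cytosolic enzymes sit together in the multisynthetase complex, and many cytosolic genes are known targets of the transcription factor ATF4, which acts when amino acids are short or the endoplasmic reticulum is under stress. The genes described here are 36 synthetase genes chosen by name, 20 cytosolic and 16 mitochondrial (symbols ending in ars2), out of 36410 rows in the deposited table. Each of the 36 had exactly 1 row, and all 36 passed the filter on low counts. The mitochondrial list is not every mitochondrial synthetase, and lysine and glycine, each charged in both compartments by the product of a single gene (Kars and Gars), appear only among the cytosolic genes.

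The study asked how the Huntington disease mutation changes where ribosomes sit on mRNAs in immortalized mouse striatal cells. Control cells (STHdh Q7/Q7) carry Htt exon 1 with 7 glutamine repeats on both alleles, HD-het cells (STHdh Q7/Q111) have 111 repeats on one allele, and HD-homo cells (STHdh Q111/Q111) have 111 on both. The labels give the strain as C57/BL6 for all lines, and all cells received cycloheximide for 10 min before harvest. Ribosome-protected fragments of 26 to 32 nt from the 80S fraction were sequenced from 3 libraries per line, 9 in all. Each genotype is 1 immortalized line, so genotype and line cannot be told apart, and p-values measure only the spread between libraries of a line, which may be technical, since the labels do not say that they came from separate cultures.

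Library totals ran from 22504543 to 41888701 counts. The biological coefficient of variation was 8.83% for control, 10.5% for HD-het and 16% for HD-homo libraries. Of 11 markers of striatal projection neurons, 4 (Drd1, Drd2, Pdyn and Bcl11b) had at most 3 counts in every library, so these defining markers of the adult cell type were at or near 0. The list summed to 44.8 to 51.3 CPM (footprints scaled to a common library size, so that libraries can be compared) in control, 48.2 to 51.9 in HD-het and 68.2 to 75.3 in HD-homo. Most of it was Foxp1 (33.46, 43.11 and 56.91 CPM on average). Ppp1r1b did not follow the sum (12.04, 5.181 and 10.55), and Adora2a, Tac1 and Rgs9 were also near 0. Of 7 neural progenitor markers, Gsx2 had at most 3 counts everywhere, and the sums ran 9597 to 9862, 8993 to 9821 and 6017 to 6549 CPM, most of it Vim (9231, 8277 and 6198 CPM on average). The members went different ways. In the same order of lines, Nes averaged 399.6, 1086 and 7.01 CPM, Sox2 51.2, 33.9 and 2.26, Pax6 17.3, 24.8 and 0.0759, and Dlx2 9.25, 2.11 and 19.9. The 4 mesenchymal markers, all detected, summed to 2601 to 4793 CPM in control, 16150 to 20500 in HD-het and 5384 to 6731 in HD-homo. Most of it was Col1a1 (3344, 16520 and 4568 CPM on average), which like Col3a1 and Pdgfrb was highest in HD-het. Col1a2 went another way, with 24.03, 88.94 and 1027 CPM on average, and was highest in HD-homo. The 5 microglia markers, with Aif1 and Cx3cr1 at no more than 3 counts, summed to 4.93 to 6.65, 18.7 to 26.8 and 4.63 to 6.17 CPM, which is Tmem119 (5.43, 21.2 and 4.39 CPM on average), while Csf1r (0.339, 0.380 and 1.06) and P2ry12 (0.288, 0.2605 and 0.0185) were near 0. The part of these marker differences in the synthetase results was not tested, and fewer cells of a type and less RNA per cell cannot be told apart in bulk libraries. A footprint count also joins the amount of an mRNA with the ribosomes on each copy, which cannot be told apart here.

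Promoters are shown first because ATF4 acts through a short element, the C/EBP-ATF composite element. The letters searched were TGATGNAA on both strands, in windows from 250 bases before to 50 after each RefSeq start site (GRCm38.p6). Of 32851 windows in the genome, 3.97% held a match. Among 13 cytosolic genes with a window, 5 held one (Aars, Gars, Iars, Tars and Yars), and among 14 mitochondrial genes with a window none did. The other 9 genes had no window in the table used. The core of the element bound by NRF1, a factor known for genes of mitochondrial proteins, was searched as CGCATGCG and lay in 1.87% of all windows, in none of the 13 cytosolic genes and in 2 mitochondrial ones (Vars2 and Wars2). The 5 matching cytosolic promoters follow, with those of Kars and Farsa, the cytosolic genes that differed most between lines. Each runs 5′ to 3′ from 150 bases before to 50 after the start, and capitals mark a match to TGATGNAA or its reverse complement.
Aars, chr8:111033692-111033891, plus strand: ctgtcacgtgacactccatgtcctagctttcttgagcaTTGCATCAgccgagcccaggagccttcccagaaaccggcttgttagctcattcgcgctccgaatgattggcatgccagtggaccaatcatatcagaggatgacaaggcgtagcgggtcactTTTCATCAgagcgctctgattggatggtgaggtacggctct
Gars, chr6:55037851-55038050, plus strand: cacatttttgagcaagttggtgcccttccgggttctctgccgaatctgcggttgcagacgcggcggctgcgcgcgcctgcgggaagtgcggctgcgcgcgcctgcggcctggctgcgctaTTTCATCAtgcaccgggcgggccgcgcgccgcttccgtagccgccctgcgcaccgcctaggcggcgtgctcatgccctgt
Iars, chr13:49681980-49682179, plus strand: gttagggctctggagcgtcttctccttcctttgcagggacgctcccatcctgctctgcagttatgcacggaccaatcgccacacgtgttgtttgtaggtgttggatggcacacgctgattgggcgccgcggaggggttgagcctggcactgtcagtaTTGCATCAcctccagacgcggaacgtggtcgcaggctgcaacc
Tars, chr15:11399609-11399808, minus strand: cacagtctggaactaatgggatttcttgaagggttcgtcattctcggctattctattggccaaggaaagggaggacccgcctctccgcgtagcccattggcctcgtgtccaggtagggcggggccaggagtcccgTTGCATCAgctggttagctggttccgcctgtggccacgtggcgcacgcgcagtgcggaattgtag
Yars, chr4:129189753-129189952, plus strand: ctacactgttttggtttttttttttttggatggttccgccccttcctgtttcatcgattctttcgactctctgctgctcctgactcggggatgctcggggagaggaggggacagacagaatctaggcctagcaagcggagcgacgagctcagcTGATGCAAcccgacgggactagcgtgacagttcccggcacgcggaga
Kars, chr8:112011305-112011504, minus strand: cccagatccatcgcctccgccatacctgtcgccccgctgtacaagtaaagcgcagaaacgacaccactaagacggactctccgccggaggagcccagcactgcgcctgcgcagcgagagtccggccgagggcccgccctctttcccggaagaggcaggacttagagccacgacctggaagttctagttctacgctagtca
Farsa, chr8:84856836-84857035, plus strand: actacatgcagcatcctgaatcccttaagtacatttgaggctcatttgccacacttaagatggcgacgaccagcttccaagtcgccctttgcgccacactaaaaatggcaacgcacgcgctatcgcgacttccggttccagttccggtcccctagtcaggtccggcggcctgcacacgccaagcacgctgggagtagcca
Aars held 2 matches, Gars, Iars, Tars and Yars 1 each, and Kars and Farsa none. A match is a run of letters and was not tested as a binding site.

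The cytosolic genes carried far more footprints than the mitochondrial ones in every line. Levels here are CPM per kilobase of the longest coding sequence, so that genes of different length can be compared. In control cells the cytosolic genes ran from 39.7 (Cars, for cysteine) to 278 (Nars, for asparagine), with a median of 101. The mitochondrial genes ran from 0.773 (Vars2) to 18.7 (Yars2), with a median of 5.42. The lowest cytosolic gene lay above the highest mitochondrial gene in each line, by more than the sum of their SDs. All 20 cytosolic genes together took 0.562% of all counts in control, and the 16 mitochondrial genes 0.0182%. A cytosolic gene had at least 1649 counts in every library, and a mitochondrial gene between 38 and 1165, so single mitochondrial values rest on fewer reads.

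**Figure D1:**
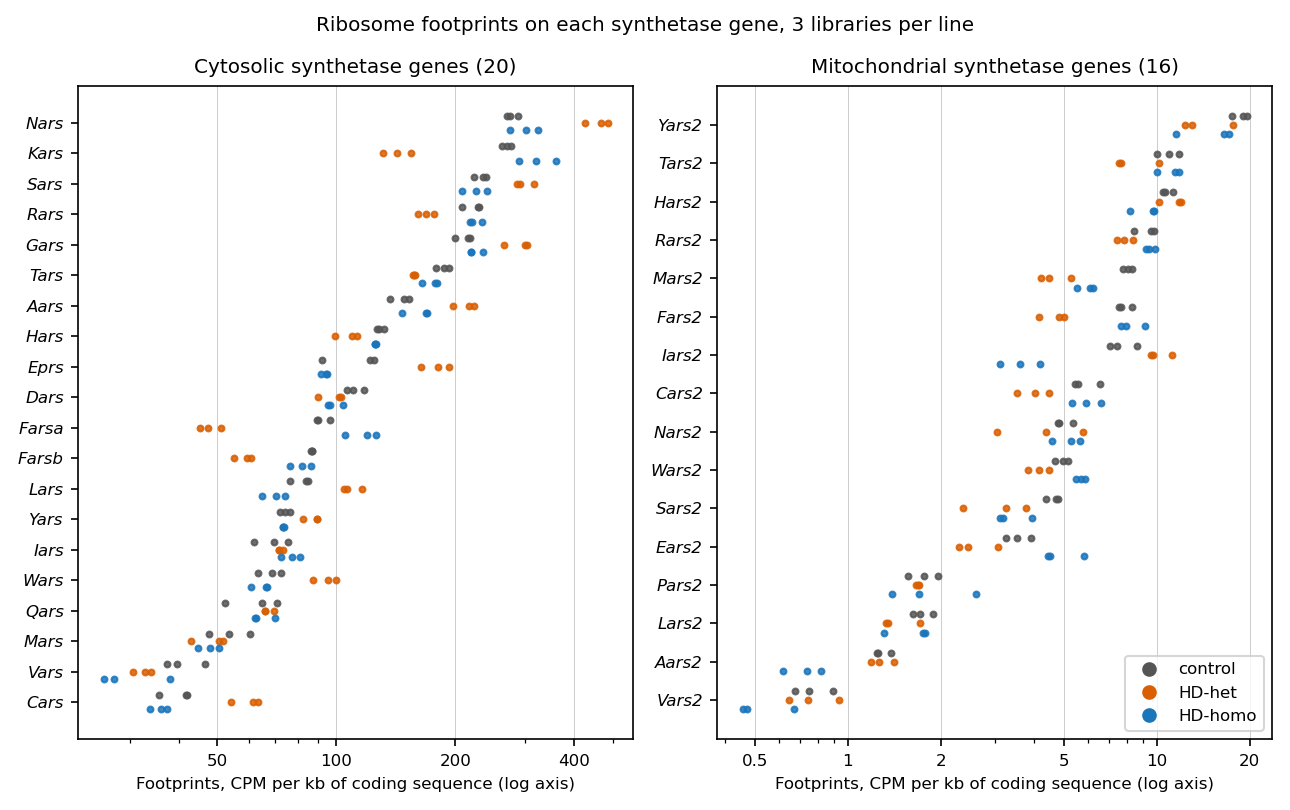
Footprints per gene, in CPM per kilobase of coding sequence on a log axis, for the 20 cytosolic genes (left) and the 16 mitochondrial genes (right), ordered by the control mean. Each point is 1 library, with 3 per line, and Kars, Farsa and Iars2 show wide gaps between lines.

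The order of levels shifted between lines within the cytosolic set. In control, Nars (278 ± 8.77 CPM per kb, SD, n = 3) and Kars (270 ± 7.67), which charges lysine, led and did not differ beyond the sum of their SDs. In HD-het, Nars stood alone at 459 ± 30.8, followed by Sars (298 ± 15.8) and Gars (289 ± 20.5), which did not differ beyond their spread, and Kars was the 8th gene at 143 ± 11.2. In HD-homo, Kars (322 ± 34.2) and Nars (300 ± 24.2) were again first and did not differ beyond their spread. Vars was the lowest cytosolic gene in HD-het (32.5 ± 1.78) and HD-homo (30.4 ± 6.66), the latter not below Cars (35.7 ± 1.75) beyond the spread.

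In HD-het against control, the cytosolic genes moved in both directions. By edgeR's quasi-likelihood test with Benjamini-Hochberg adjustment over 12678 genes (adjusted p under 0.05), 9 of 20 were higher, 6 were lower and 5 did not pass. Of all genes tested, 31% were higher and 29.1% lower, against 45% and 30% of the cytosolic synthetase genes. Their median log2 fold change was 0.08, beside 0.02 over all genes. Summed over the 20 genes, the libraries had 5704, 5735 and 5239 CPM in control, 6347, 6285 and 6086 in HD-het and 5407, 5537 and 5766 in HD-homo, so that the sum was higher in every HD-het library than in any other. Scaled by total counts alone, HD-het replicate 3 (5651) lay within the control range (5372 to 5756). The rise was led by Nars (0.73 ± 0.09, SE), Eprs (0.67 ± 0.11), which charges both glutamate and proline, and Cars (0.59 ± 0.09), followed by Aars, Wars, Gars, Lars, Sars and Yars (0.54 down to 0.23). The fall was led by Farsa and Kars (-0.94 and -0.92), with Farsb, Rars, Hars and Tars between -0.57 and -0.24. Qars, Iars, Mars, Dars and Vars did not pass, with log2 fold changes of 0.10, 0.06, -0.16, -0.18 and -0.34. With offsets for GC content and coding length the balance turned, to 4 higher and 10 lower, and Eprs, Gars, Lars, Sars and Yars no longer passed. The call of Yars was lost in 7 of 17 settings, among them the fits without control replicate 2 or 3 and without HD-het replicate 1 or 2 (0.23, 0.21, 0.20 and 0.20). Mars shares annotated bases with Ddit3, Hars with Hars2, Aars with Ddx19b, Farsb with Sgpp2, Lars with Rps19-ps4, and Wars with Wdr25 and Gm22079. Cars (Gm15580 and Mir7064), Farsa (Mir7069), Iars (Gm23482 and Gm25394) and Sars (Gm22942) also overlap annotated genes. All of these genes may share reads.

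Nars, the asparagine enzyme, had 482, 460 and 454 CPM in control, 814, 713 and 782 in HD-het and 460.5, 506 and 541.5 in HD-homo. The HD-het libraries lay above all others, and those of control and HD-homo overlapped. In edgeR its adjusted p against control was 2.99e-05 for HD-het and 0.314 for HD-homo.

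Kars, whose product charges lysine tRNAs in cytosol and mitochondria (chr8:111993439-112011354), had 505, 490 and 518 CPM in control, 267, 246 and 288 in HD-het and 543, 597 and 671 in HD-homo. The HD-het libraries were below all others, and each HD-homo library was above each control library. edgeR gave -0.92 ± 0.09 in HD-het (adjusted p = 1.13e-05) and 0.26 ± 0.09 in HD-homo (adjusted p = 0.0416). The HD-homo call was lost in 10 of 17 alternative settings, with adjusted p up to 0.156. These included the fits without control replicate 1, 2 or 3, without HD-het replicate 1 or 2 and without HD-homo replicate 2 or 3 (log2 fold changes of 0.24, 0.24, 0.28, 0.24, 0.24, 0.27 and 0.18).

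Farsa and Farsb encode the alpha and beta subunits of the cytosolic phenylalanine enzyme. Farsa (chr8:84856969-84869257) had 136, 137 and 146.5 CPM in control, 68.9, 72.2 and 78.0 in HD-het and 182, 160 and 192 in HD-homo. Every HD-het library was below, and every HD-homo library above, all control libraries. By edgeR the log2 fold change was -0.94 ± 0.09 in HD-het (adjusted p = 6.30e-06) and 0.35 ± 0.09 in HD-homo (adjusted p = 0.00707). The beta subunit, Farsb, was -0.57 ± 0.08 in HD-het (adjusted p = 7.50e-05 in edgeR) and -0.09 ± 0.08 in HD-homo, where it did not pass (adjusted p = 0.37).

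In HD-het the directions differed between cytosolic genes known as ATF4 targets and the other cytosolic genes. The list is background knowledge, but it was chosen with earlier results of these data known. The split is therefore a description, and it was not tested. Of 13 cytosolic genes known as ATF4 targets (Aars, Cars, Eprs, Gars, Iars, Lars, Mars, Nars, Sars, Tars, Vars, Wars and Yars), 9 were higher, 1 was lower (Tars) and 3 did not pass, with a median log2 fold change of 0.41. Of the 7 others (Dars, Farsa, Farsb, Hars, Kars, Qars and Rars), none was higher, 5 were lower and 2 did not pass, with a median of -0.40. Over all genes 31% were higher and 29.1% lower. Summed over the 13 genes, the libraries had 3948, 3964 and 3528 CPM in control, 5138, 5056 and 4791 in HD-het and 3613, 3722 and 3797 in HD-homo. The 7 others summed to 1756, 1771 and 1711, to 1208, 1230 and 1296, and to 1794, 1815 and 1970 CPM. The HD-het libraries stood apart from both other lines in each sum, upward in the first and downward in the second. Of the 13 genes 8 have a promoter window, and all 5 that hold the element are among these, while none of the 5 windows of the 7 others holds it. The element is the one through which ATF4 acts, so these matches and the list are not independent. Among the 5 genes with a match, Aars, Gars and Yars were higher in HD-het, Tars was lower and Iars did not pass.

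**Figure D2:**
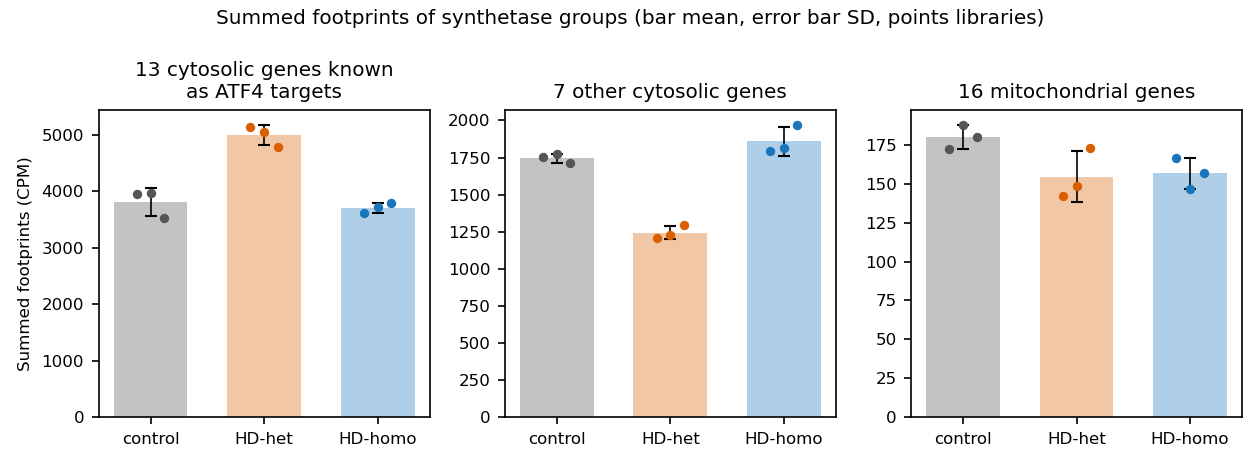
Summed footprints in CPM for 13 cytosolic synthetase genes known as ATF4 targets, 7 other cytosolic genes and 16 mitochondrial genes. Bars are means of 3 libraries, error bars SD and points libraries, and HD-het is high in the first panel (4995 on average, against 3813 in control) and low in the second (1245 against 1746).

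The medians of the groups stood 0.81 apart on the log2 scale, and 0.83 apart with offsets for GC content and coding length, an alternative chosen after the data were seen. The calls moved with these offsets. With them 4 of the 13 genes were higher (Aars, Cars, Nars and Wars) and 4 lower (Iars, Mars, Tars and Vars), with a median of 0.17, and of the 7 others none was higher and 6 were lower, with a median of -0.66. The offsets moved the median of all genes from 0.02 to -0.13 and the calls over all genes to 3191 higher and 4911 lower, from 3931 and 3689. The median coding length was 2493 nt in the 13 genes and 1767 nt in the 7 others, and the median GC content was 52.3% and 51.9%.

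Grouped by complex or fold, the genes of every group were called in both directions, as were genes at large (31% higher and 29.1% lower over all genes). Of the 8 enzymes of the multisynthetase complex (Dars, Eprs, Iars, Kars, Lars, Mars, Qars and Rars), 2 were higher, 2 lower and 4 did not pass in HD-het against control. Of the 12 free-standing cytosolic genes, 7 were higher, 4 lower and 1 did not pass. The shares were 25% higher and 25% lower in the complex, near those over all genes, and 58.3% and 33.3% among the free-standing genes. Synthetases have catalytic domains of 2 unrelated folds, class I and class II, and Eprs holds both. Of the 9 class I genes 4 were higher and 1 lower (44.4% and 11.1%), and of the 10 class II genes 4 were higher and 5 lower (40% and 50%). The medians were -0.05, 0.30, 0.10 and -0.21 in that order, and the differences between these groups were not tested. With the GC content and coding length offsets, none of the 8 complex enzymes was higher and 5 were lower.

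In HD-homo against control, few cytosolic genes differed. By edgeR 2 of 20 were higher (Farsa and Kars), 2 lower (Vars and Lars) and 16 did not pass, with a median log2 fold change of -0.04. That is 10% in each direction, against 23.3% higher and 22.3% lower over all genes tested. Without control replicate 2 or HD-homo replicate 3 the 4 calls fell to 1, and without control replicate 1 or HD-homo replicate 2 to 2. None of the 13 ATF4 target genes was higher. Lars, for leucine, was -0.23 ± 0.08 in HD-homo (adjusted p = 0.0434 in edgeR), and that call was lost without control replicate 1 or 2 and without HD-homo replicate 1 or 3 (-0.23, -0.20, -0.18 and -0.23).

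Vars, the valine enzyme, had 152, 178.5 and 143 CPM in control, 130, 117 and 126 in HD-het and 146, 98.8 and 105 in HD-homo. One HD-homo library lay within the control range and the others below it. Its log2 fold change in HD-homo was -0.44 ± 0.14 (adjusted p = 0.0250 in edgeR), and the call was lost without control replicate 2 and without HD-homo replicate 2 or 3 (-0.34, -0.33 and -0.37). In HD-het its call was missed narrowly (adjusted p = 0.0534 in edgeR) and was made without control replicate 3 (-0.41) and without HD-homo replicate 1 or 2 (-0.35 and -0.34).

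In HD-homo against HD-het, 5 cytosolic genes were higher, 9 lower and 6 did not pass by edgeR, beside 34.6% higher and 32.8% lower over all genes. This comparison shares its libraries with the other pair, and the comparisons against control share the control libraries. All 9 that were lower in HD-homo belong to the 13 ATF4 target genes, and all 5 that were higher to the 7 others. With the GC content and coding length offsets, 6 of the 13 were lower and 4 (Iars, Mars, Tars and Vars) higher. The largest differences were those of Farsa (1.29 ± 0.09) and Kars (1.18 ± 0.09). Eprs, whose bifunctional product charges glutamate and proline, had 552, 564 and 416.5 CPM in control, 821, 874.5 and 744 in HD-het and 429.5, 426 and 414 in HD-homo. Its HD-het libraries were above all others, and it fell by 0.94 ± 0.11 from HD-het to HD-homo on the log2 scale (adjusted p = 2.32e-05 in edgeR). Its rise in HD-het against control was lost with the GC content and coding length offsets (0.25, adjusted p = 0.0555 in edgeR).

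**Figure D3:**
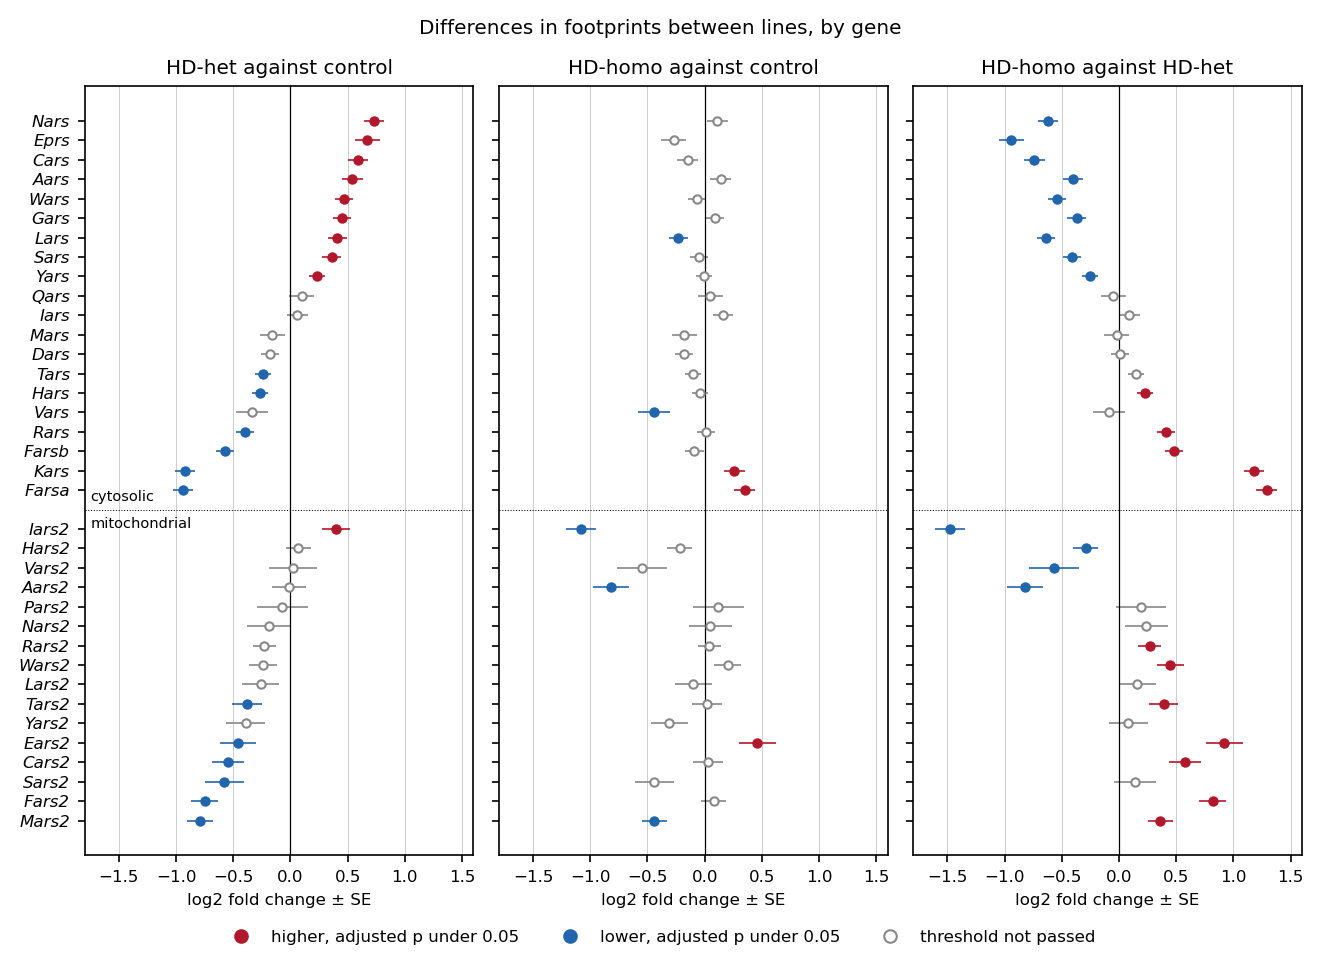
The log2 fold change of each of the 36 genes in the 3 comparisons, with SE from edgeR, cytosolic genes above the dotted line and mitochondrial genes below it. Filled points passed an adjusted p of 0.05 over 12678 genes, and open points did not. In HD-het the cytosolic genes run from -0.94 to 0.73, and in HD-homo from -0.44 to 0.35.

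In HD-het against control, more mitochondrial genes were lower than higher. By edgeR 1 of 16 was higher (Iars2), 6 were lower (Mars2, Fars2, Sars2, Cars2, Ears2 and Tars2, -0.79 to -0.38) and 9 did not pass, with a median log2 fold change of -0.25. The 6 lower genes are 37.5% of the list, beside 29.1% over all genes, and the 1 higher gene is 6.25%, beside 31%. Without control replicate 3 the 7 calls fell to 4, and with the GC content and coding length offsets 10 genes were lower and none higher. Summed over the 16 genes the libraries had 172, 188 and 180 CPM in control, 142, 149 and 173 in HD-het and 166, 146 and 157 in HD-homo. In HD-het the highest library overlapped control by a small margin, and in HD-homo all libraries lay below control.

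Mars2, which charges the methionine tRNA of mitochondria, had 13.6, 14.6 and 14.2 CPM in control, 7.40, 7.87 and 9.27 in HD-het and 10.7, 9.67 and 10.96 in HD-homo. Both mutant lines lay below every control library, with HD-het lowest. The log2 fold changes were -0.79 ± 0.11 (adjusted p = 0.00011) and -0.44 ± 0.11 (adjusted p = 0.00735) in edgeR. Mars2 (chr1:55237177-55240058) overlaps no other annotated gene. Of the other mitochondrial genes, Fars2 overlaps Gm40912, Lars2 Gm46137, Rars2 Orc3, and Wars2 Gm18982 and Mir6481, with which they may share reads.

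Fars2, the single-chain mitochondrial phenylalanine enzyme, had 11.8, 10.8 and 10.6 CPM in control, 5.88, 7.04 and 6.81 in HD-het and 12.9, 10.8 and 11.2 in HD-homo. HD-het was below both other lines, and control and HD-homo overlapped. By edgeR it was -0.75 ± 0.12 in HD-het (adjusted p = 0.000251) and 0.08 ± 0.11 in HD-homo (adjusted p = 0.622). All 3 phenylalanine genes, Farsa, Farsb and Fars2, were thus lower in HD-het.

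Sars2, the mitochondrial serine enzyme, had 6.80, 7.47 and 7.34 CPM in control, 5.88, 3.66 and 5.06 in HD-het and 6.12, 4.93 and 4.84 in HD-homo. Both mutant lines were below control and overlapped each other. It was -0.58 ± 0.17 in HD-het (adjusted p = 0.0135 in edgeR), and in HD-homo -0.44 ± 0.17 (adjusted p = 0.0576 in edgeR), which did not pass but did so without HD-het replicate 1 or 2 or without HD-homo replicate 1 (-0.45, -0.45 and -0.56).

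In HD-homo against control, 1 mitochondrial gene was higher (Ears2), 3 were lower (Iars2, Aars2 and Mars2) and 12 did not pass by edgeR, with a median log2 fold change of -0.04. These are 6.25% and 18.75% of the list, beside 23.3% higher and 22.3% lower over all genes. Iars2, the mitochondrial isoleucine enzyme, had 21.4, 26.2 and 22.5 CPM in control, 29.5, 29.0 and 34.05 in HD-het and 12.7, 10.9 and 9.45 in HD-homo. The lines did not overlap, with HD-het highest and HD-homo lowest. The log2 fold change was 0.40 ± 0.12 in HD-het (adjusted p = 0.0163) and -1.08 ± 0.13 in HD-homo (adjusted p = 4.15e-05) in edgeR. The HD-het call was lost without control replicate 1 or 3 and without HD-het replicate 3 (0.32, 0.37 and 0.30), and with the GC content and coding length offsets (0.08). Iars2 (chr1:185286642-185329419) shares annotated bases with Rab3gap2, Mir194-1 and Mir215, with which it may share reads, since the strand setting of the counting is not given in the sources used here.

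Aars2, the mitochondrial alanine enzyme, had 4.05, 3.66 and 3.69 CPM in control, 3.72, 3.49 and 4.16 in HD-het and 2.17, 2.41 and 1.82 in HD-homo. Control and HD-het overlapped, and HD-homo was below both. By edgeR its log2 fold change in HD-homo was -0.82 ± 0.16 against control (adjusted p = 0.00122), while in HD-het it was -0.01 ± 0.15.

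Ears2, which charges glutamate in mitochondria, had 5.54, 5.09 and 6.17 CPM in control, 3.61, 3.85 and 4.82 in HD-het and 7.07, 7.00 and 9.14 in HD-homo. HD-het lay below and HD-homo above all control libraries. edgeR gave -0.46 ± 0.16 in HD-het (adjusted p = 0.0296) and 0.46 ± 0.16 in HD-homo (adjusted p = 0.0298). Each call was lost when any 1 of several libraries was left out, while its direction was kept. The first was lost without control replicate 1 or 3 and without HD-het replicate 1 or 2 (-0.48, -0.39, -0.39 and -0.43), and the second without control replicate 1 or 2 and without HD-homo replicate 3 (0.44, 0.40 and 0.33).

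In HD-homo against HD-het, 7 mitochondrial genes were higher, 4 lower (Iars2, Aars2, Vars2 and Hars2) and 5 did not pass by edgeR, with a median of 0.21. Over all genes 34.6% were higher and 32.8% lower. Without HD-het replicate 2 the 11 calls fell to 7. The largest differences were those of Iars2 (-1.48 ± 0.13), Ears2 (0.92 ± 0.16), Fars2 and Aars2 (0.82 ± 0.12 and -0.82 ± 0.16). Among all 36 genes, 25 differed among the 3 lines by edgeR's test of any difference, 16 cytosolic and 9 mitochondrial. That is 69.4%, beside 78.4% of all genes tested. The 4 cytosolic genes that did not were Dars, Iars, Mars and Qars.

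Cytosolic and mitochondrial enzymes for the same amino acid were set against each other per length, as 17 pairs. Eprs was paired with both Ears2 and Pars2, and Fars2 with both phenylalanine subunits, so the pairs are not independent, and no test was run over them. In control the cytosolic gene was 3.96-fold (tyrosine) to 113-fold (alanine) above its partner. In HD-het the log2 ratio was higher than in control in 12 pairs and lower in 5, with a median change of 0.63 and a range of -0.34 to 1.14. In HD-homo it was higher in 9 and lower in 8, with a median change of 0.06 and a range of -0.72 to 1.25.

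The glutamate and cysteine pairs had the largest mean changes in HD-het (1.14 and 1.13), which did not differ beyond their spread. The glutamate pair, Eprs over Ears2, had log2 ratios of 5.11, 5.26 and 4.55 in control, 6.30, 6.30 and 5.74 in HD-het and 4.39, 4.40 and 3.97 in HD-homo. HD-het was above and HD-homo below every control library. The cysteine pair, Cars over Cars2, had 2.94, 2.68 and 2.68 in control, 3.93, 4.17 and 3.59 in HD-het and 2.45, 2.52 and 2.81 in HD-homo, where control and HD-homo overlapped. The isoleucine pair, Iars over Iars2, ran the other way, with 3.30, 3.13 and 3.06 in control, 2.88, 2.94 and 2.67 in HD-het and 4.27, 4.33 and 4.63 in HD-homo. Its lines did not overlap, and Iars itself passed the threshold in no comparison.

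**Figure D4:**
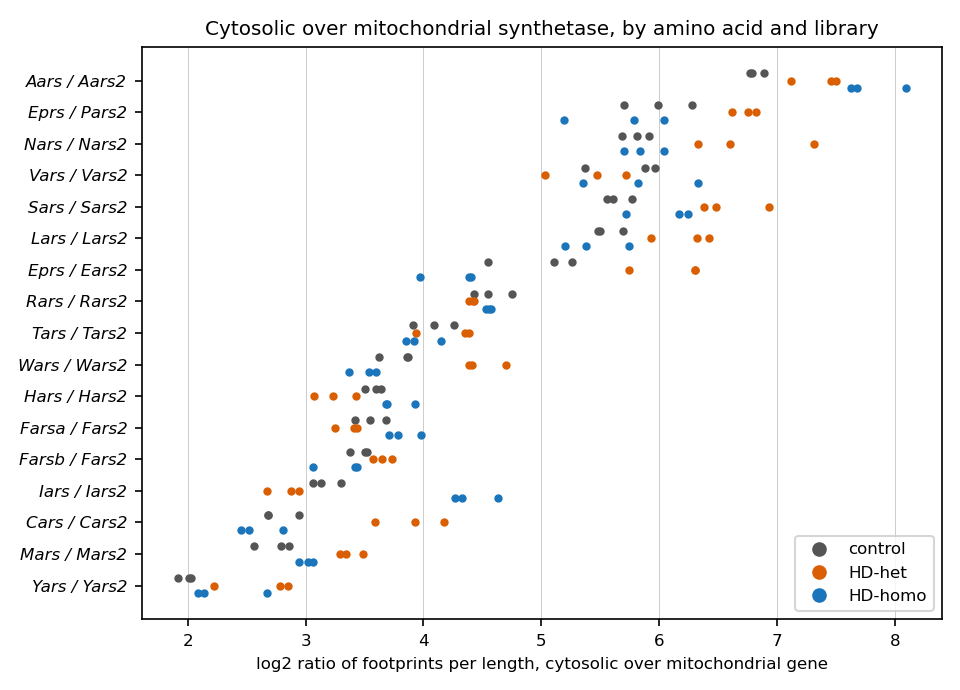
The log2 ratio of footprints per kilobase of coding sequence, cytosolic over mitochondrial gene, for 17 pairs ordered by the control mean. Each point is 1 library, and the isoleucine pair (Iars / Iars2) is highest in HD-homo, at 4.27 to 4.63 against 3.06 to 3.30 in control.

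Genes that work beside the synthetases were taken from lists of known function. Of 6 partner and editing genes, 2 were higher and 4 lower in HD-het against control by edgeR, with a median log2 fold change of -0.34, beside 31% higher and 29.1% lower over all genes. Eef1e1 and Aimp2, which encode scaffold proteins of the multisynthetase complex, were -0.92 ± 0.13 and -0.85 ± 0.11. Dtd1, which removes D-amino acids from tRNAs, was 1.30 ± 0.17 in HD-het and 2.42 ± 0.17 in HD-homo, where 2 of the 6 were higher and 1 lower. In that line 23.3% of all genes were higher than in control and 22.3% lower. From HD-het to HD-homo Eef1e1 rose by 1.40 ± 0.14.

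Of 18 amino acid response genes, known targets of ATF4 or its relatives and ATF4 itself, 13 were higher, 4 lower and 1 did not pass in HD-het against control by edgeR. Over all genes 31% were higher and 29.1% lower. The median log2 fold change of the list was 0.85. The largest were Trib3 (2.73 ± 0.21), a pseudokinase induced by stress, Atf5 (2.30 ± 0.21), a transcription factor related to ATF4, and Slc7a11 (2.08 ± 0.14), the cystine transporter. The 4 lower genes, named after their values were seen, were Shmt2 (-0.76 ± 0.10), Psat1 (-0.41 ± 0.08) and Phgdh (-0.36 ± 0.08), enzymes of serine and one-carbon metabolism, and Nupr1 (-0.43 ± 0.14), a stress-induced regulator of transcription. In HD-homo against control 5 were higher, 2 lower and 11 did not pass, with a median of 0.08 and a highest value of 0.92 ± 0.21 (Trib3). That is 27.8% higher and 11.1% lower, beside 23.3% and 22.3% over all genes. From HD-het to HD-homo 13 were lower and 3 higher, beside 32.8% lower and 34.6% higher over all genes.

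Of 10 genes of tRNA maturation, 9 were lower and none higher in HD-het against control by edgeR, with a median of -0.78, beside 29.1% lower and 31% higher over all genes. Pop1 and Rpp30, subunits of RNase P that trim the 5′ end of tRNA precursors, were -1.51 ± 0.10 and -1.04 ± 0.07, and Nsun2, a tRNA methyltransferase, -1.05 ± 0.11. In HD-homo against control 3 were higher, 1 lower (Pop1, -0.62 ± 0.10) and 6 did not pass, beside 23.3% higher and 22.3% lower over all genes. From HD-het to HD-homo all 10 were higher, beside 34.6% over all genes.

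For mitochondrial translation, 5 of 9 factors were lower and 1 higher in each mutant line against control by edgeR, with a median of -0.47 for HD-het and -0.33 for HD-homo. Over all genes 29.1% were lower and 31% higher in HD-het, and 22.3% lower and 23.3% higher in HD-homo. The genes were not all the same. Gfm1, Tsfm and Tufm were lower in both lines, Gfm2 and Mtrf1l only in HD-het, and Mtif2 and Mtrf1 only in HD-homo. The higher gene was Mtif2 in HD-het and Mrrf in HD-homo. Tsfm, an elongation factor, was -0.79 ± 0.08 in HD-het and -0.38 ± 0.08 in HD-homo. Mtif2, an initiation factor, was 0.29 ± 0.10 in HD-het and -0.60 ± 0.11 in HD-homo. Of 4 genes that make glutaminyl-tRNA by amidation or formylate the initiator tRNA in mitochondria, 2 were lower in HD-het, Qrsl1 (-1.04 ± 0.10) and Gatc (-0.72 ± 0.10), both subunits of the amidotransferase. In HD-homo 1 of the 4 was higher, Mtfmt, the formyltransferase (0.37 ± 0.11).

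**Figure D5:**
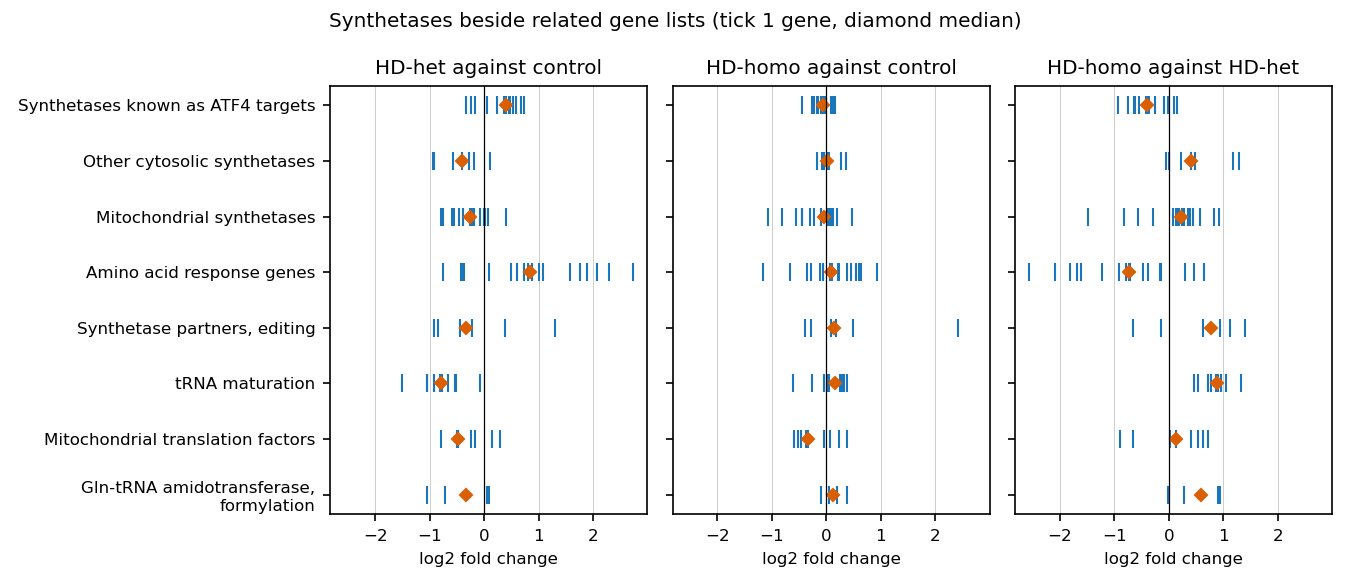
The log2 fold change of every gene of 8 lists in the 3 comparisons, 1 tick per gene, with the list's median as a diamond. In HD-het against control the medians are 0.41 for synthetase genes known as ATF4 targets, -0.40 for the other cytosolic synthetase genes, 0.85 for amino acid response genes and -0.78 for tRNA maturation.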

How the data were processed

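Ribosome-protected fragments of the 9 libraries were processed by the authors, whose processing notes name cutadapt, Bowtie 1.0.1 and the mm10 build. The deposited table holds raw counts per gene symbol, not normalized. The counting program, annotation and strand setting are not given in the sources used here. Of 36410 rows, 19597 were 0 in every library, and 26 carried a date in place of a symbol (0.252% of counts) and were kept. Replicates correlated at r of 0.988 or more and none was a duplicate.

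The members and lists were chosen with earlier results of these data known. A member was the row named by its symbol, or by its symbol followed by 1, and values in every library are given for the 3 called members with the largest change per class and comparison. Counts were tested in edgeR 4.0.16 (R 4.3.3) with TMM factors, the filter of filterByExpr, group means over all 9 libraries and quasi-likelihood tests, adjusted by Benjamini-Hochberg over 12678 genes at 0.05. SE is the log2 fold change over the root of F. CPM used TMM-scaled totals, and coding lengths came from GENCODE. Coordinates and promoter sequences are from RefSeq, GRCm38.p6, where 27 of 36 members had a window, and 93% of rows matched a RefSeq symbol. Alternatives were DESeq2 1.42.0, other scalings and filters, 6-library fits, a replicate block, each library left out, offsets for GC content and coding length, and a minimum fold of 1.5 (the last 2 chosen after seeing the data). No protein sequences were used here. Some marker genes are not reported here.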

Additional observations from a re-analysis of the deposited data

Results flagged for a closer look

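In 5 genes the change against control had opposite signs in the mutant lines, both past the threshold. The difference between the lines, tested in edgeR as HD-homo against HD-het, was past it too. Genes chosen for opposite changes in these same libraries pass that test almost by construction, so it adds no separate evidence. Farsa differed by 1.29 ± 0.09 on the log2 scale (adjusted p = 3.20e-07), Kars by 1.18 ± 0.09 (adjusted p = 1.01e-06), Lars by -0.64 ± 0.08 (adjusted p = 3.98e-05), Ears2 by 0.92 ± 0.16 (adjusted p = 0.000353) and Iars2 by -1.48 ± 0.13 (adjusted p = 1.92e-06). Each of these differences between the mutant lines stayed past the threshold, with its direction, in all 17 alternatives. Of the calls against control, those of Farsa, that of Kars in HD-het and that of Iars2 in HD-homo were kept throughout. In HD-homo the call was lost in 10 of the 17 for Kars, 6 for Lars and 3 for Ears2. In HD-het it was lost in 4 for Ears2, 4 for Iars2 and 1 for Lars.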

How the results depend on the processing

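Of 108 differences of single genes, 67 kept their side of the threshold in all 17 alternative fits. Direction was not required where neither fit passed, and Qars in HD-het against control ran from -0.16 to 0.20. Over the 1836 refits 76 calls were lost and 41 gained, and 3 differences that had not passed changed sign and then passed, all 3 with the offsets for GC content and coding length: Iars in HD-het against control (-0.32, adjusted p = 0.00707 in edgeR), and Mars (0.32, adjusted p = 0.0126) and Vars (0.38, adjusted p = 0.0154) in HD-homo against HD-het. The same offsets moved the medians in HD-het against control to -0.24 (cytosolic) and -0.50 (mitochondrial) and the cytosolic median in HD-homo against HD-het to 0.15, and over all genes the last comparison to 5112 higher and 3668 lower, from 4391 and 4164. The cause was not tested. With total counts as the only scaling, the cytosolic median in HD-homo against HD-het was 0.01, and the summed cytosolic level in HD-het 6060 CPM in place of 6239. With a change of at least 1.5-fold also required, which leaves fewer genes by construction, the calls were 5 cytosolic and 2 mitochondrial in HD-het, 0 and 2 in HD-homo against control, and 6 and 4 between the mutant lines. These are out of 20 cytosolic and 16 mitochondrial genes. Of all 12678 genes, 2797 were higher and 2018 lower at this cut in HD-het, and 1726 and 1700 in HD-homo. From HD-het to HD-homo the numbers were 2766 higher and 3092 lower. Without that fold, edgeR called 4 cytosolic genes in HD-homo, and 2 when only the 6 libraries compared were fitted. Leaving out each library in turn gave cytosolic calls of 14 to 16 and mitochondrial calls of 4 (without control replicate 3) to 8 (without HD-homo replicate 2) in HD-het against control, with medians of -0.01 (without control replicate 3) to 0.16 (without control replicate 2) and of -0.41 (without HD-het replicate 3) to -0.21. In HD-homo against control the cytosolic calls ran from 1 (without control replicate 2 or HD-homo replicate 3) to 4, and were 2 without control replicate 1 or HD-homo replicate 2. The mitochondrial calls ran from 3 to 6 and their median from -0.18 (without HD-homo replicate 1) to -0.01. In HD-homo against HD-het the cytosolic median ran from -0.17 (without HD-homo replicate 1) to 0.00 (without HD-homo replicate 2) and the mitochondrial calls from 7 (without HD-het replicate 2) to 11. Replicate numbers are shared between lines, but same-numbered libraries did not deviate together more than others. Their correlations were -0.356 to 0.175, beside -0.275 to 0.376 for libraries of different number. This check cannot show whether same-numbered libraries were prepared together, and the main fit did not pair them. With a replicate block the calls in HD-het were 15 cytosolic and 7 mitochondrial, no synthetase gene changed its side of the threshold, and calls over all genes went from 7620 to 7463. No gene had a row under both symbol forms, so that alternative was not run. Mitochondrial genes had as few as 38 counts, which limits what could be detected.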
